A study of Rattus norvegicus with 56 samples.

Results

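The genes described here encode enzymes that chemically change or conjugate drugs, steroids, fatty acids and reactive aldehydes. They were taken by name: cytochromes P450 of families 1 to 4, glutathione transferases, UDP-glucuronosyltransferases of families 1 and 2, epoxide hydrolases, aldehyde dehydrogenases, aldo-keto reductases and the quinone reductase Nqo1, leaving out Cyp2e1 and Aldh1a1. The rule reads symbols only, and gave 88 genes of the 10411 that the array names singly, each read from 1 probe set, the one with the highest mean over the 24 rats measured singly. The array carried 29 P450s of families 1 to 3, 10 of family 4, 2 epoxide hydrolases, 16 glutathione transferases (9 alpha or mu, 7 of other classes), 6 UDP-glucuronosyltransferases, 12 aldehyde dehydrogenases, 12 aldo-keto reductases and Nqo1.

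Cytochromes P450 insert oxygen into lipophilic compounds, and glutathione transferases and UDP-glucuronosyltransferases then attach a soluble group. Aldehyde dehydrogenases and aldo-keto reductases remove aldehydes made by lipid peroxidation and intermediary metabolism, the first by oxidation, the second by reduction. Liver is the main site of these enzymes, and in the mammary gland both fat cells and epithelium express part of the set. Nuclear receptors that pair with the retinoid X receptor, the aryl hydrocarbon receptor and the factor NRF2 are textbook regulators of many of these genes.

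Mammary glands came from female Wistar Furth rats, an inbred strain, that had received an RXR treatment (12 rats) or served as controls (12 rats). The labels used here do not name the compound, its dose or the rats' ages. Of the treated rats 6 were in diestrus and 6 in proestrus or estrus, and of the controls 9 and 3. Labelled targets of these same rats were also combined into 6 pools of 2, 4 pools of 3 and 1 pool of 12 in each arm. The pool of 12 was put on 4 arrays in each arm, and rat 3 of each arm on 2 further arrays, which makes 56 arrays. The pools hold RNA of the rats already measured singly and are no independent set of animals. In whole glands, fewer cells of a type and less RNA per cell cannot be told apart.

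Array medians lay between 7.40 and 7.48 on the log2 scale. Of 14 fat cell markers, control means ran from 6.78 (the hormone Lep) to 13.28 (the protease Cfd), with the fatty acid carrier Fabp4 at 12.73 and the receptor Acvr1c at 7.06, and 19 luminal epithelial markers averaged 9.01. A list of 12 hepatocyte genes averaged 6.65 in control and 6.63 in treated rats, and its brightest member was Alb at 10.04 in controls. The number of arrays limits the precision of every value below.

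The treated group was higher for 15 of the 88 genes and lower for none (limma across 15866 probe sets, Benjamini-Hochberg adjusted p under 0.05). The 15 were Akr1b1, Akr1e2, Akr7a2, Akr1b8, Akr1c14 and Akr1c13, the transferases Gsta1, Gstm1, Gsto1 and Gstk1, the dehydrogenases Aldh6a1, Aldh3a2 and Aldh7a1, Cyp1a1 and Nqo1. Over the whole array 8.46% of probe sets were higher and 9.59% lower in treated rats. The median difference of the 88 was 0.03 log2, against 0.00 for all probe sets, and 65 of the 88 differed by less than 0.1. An unadjusted p under 0.05 was reached by 21 of the 88 genes and by 4618 of the 15866 probe sets. The absence of a fall depends on the list: of the 2 genes left out by name, the P450 Cyp2e1 fell from 8.34 ± 0.76 to 7.09 ± 0.13 (-1.25 ± 0.21, adjusted p = 1.07e-04), and Aldh1a1 differed by -0.01 ± 0.04. With the mean of 14 fat cell markers as a covariate, an analysis chosen after the data were seen, 8 of the 15 still passed and 7 did not.

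**Figure D1:**
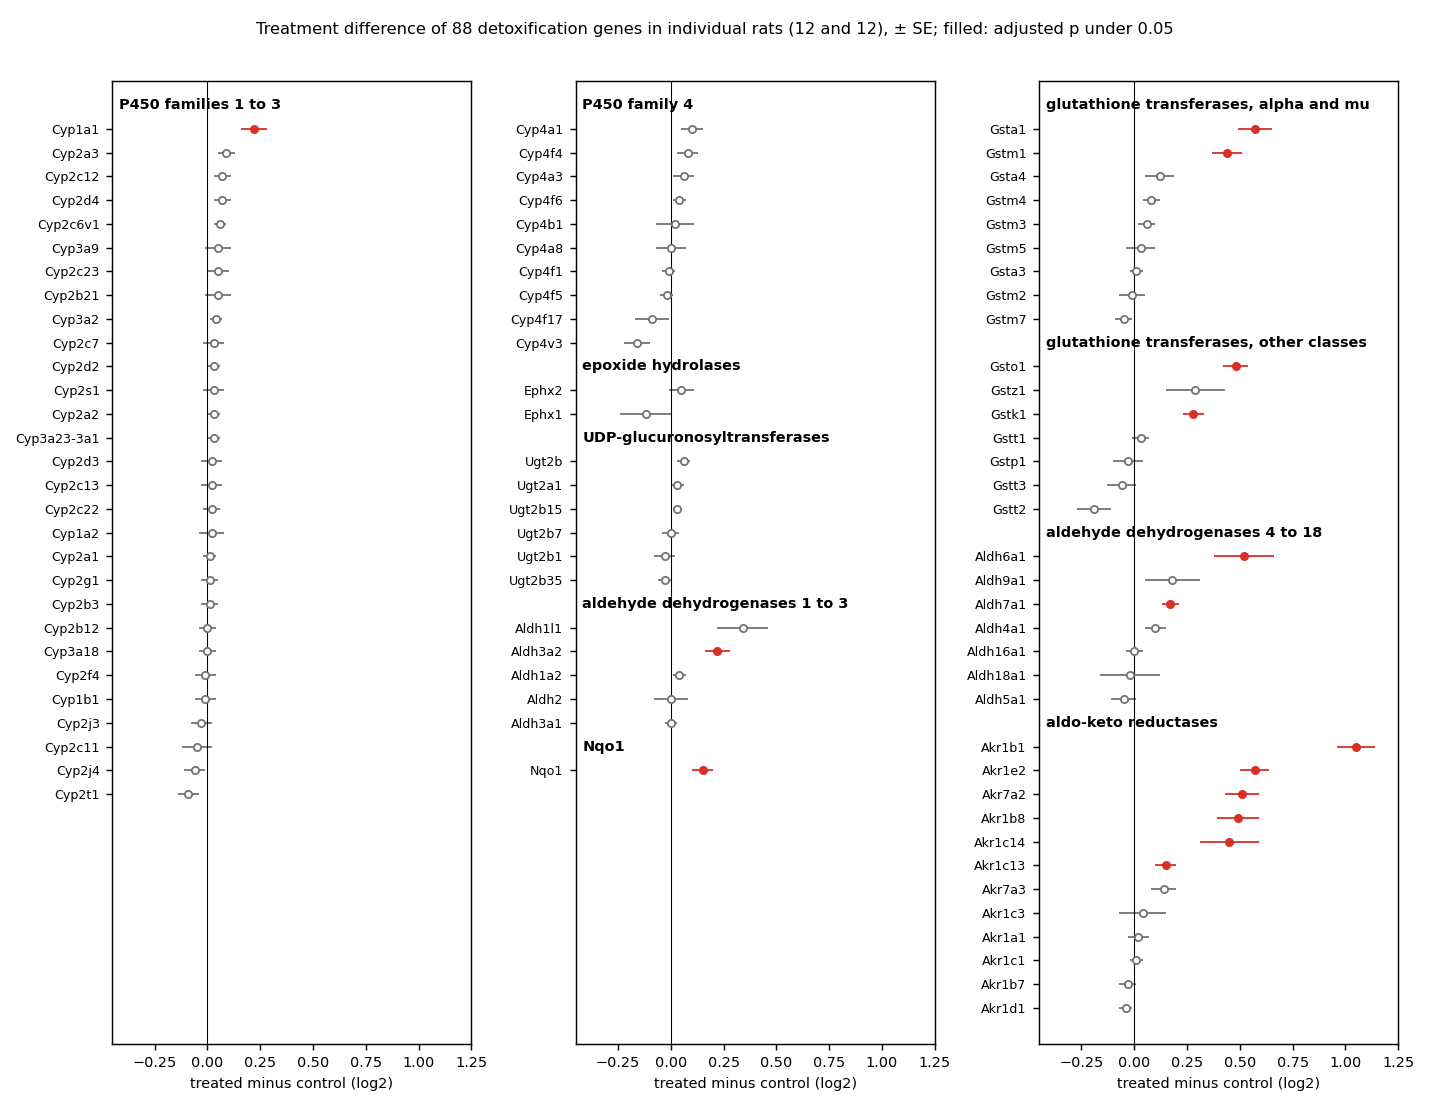
Treated minus control difference (log2, horizontal axis) of each of the 88 genes with its standard error, grouped by enzyme family, from 12 treated and 12 control rats. Filled red points passed an adjusted p under 0.05: 15 genes lie right of 0, among them 6 aldo-keto reductases, and no gene left of 0 is filled.

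Aldo-keto reductases held 6 of the 15, of 12 measured. Akr1b1, an aldose reductase that turns glucose to sorbitol and also reduces prostaglandin precursors and lipid aldehydes, was the most changed. The 12 control rats ran from 9.78 to 10.38 with a median of 10.14, and the 12 treated rats from 10.71 to 11.53 with a median of 11.17. The groups did not overlap, which held for 1 of the 88 genes and for 0.523% of all probe sets. The means were 10.11 ± 0.16 and 11.16 ± 0.30 (SD, n = 12 each), a difference of 1.05 ± 0.09 log2 (SE, adjusted p = 8.26e-08), or 2.08-fold.

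Akr1e2, a reductase of 1,5-anhydrofructose, lay between 8.98 and 9.45 in control rats (median 9.16) and between 9.41 and 10.10 in treated rats (median 9.73). The groups overlapped only between 9.41 and 9.45, and all 12 treated rats were above the control mean. The difference was 0.57 ± 0.07 (adjusted p = 6.67e-06). Akr7a2, which reduces succinic semialdehyde and aflatoxin dialdehyde, ran from 8.42 to 8.77 in controls (median 8.60) and from 8.66 to 9.48 in treated rats (median 9.20). In the treated group 8 rats lay at or above 9.18 and 4 at or below 8.90, so that the treated spread (SD 0.26) exceeded the control spread (SD 0.11). Its difference was 0.51 ± 0.08 (adjusted p = 3.64e-05).

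Akr1b8, a close relative of Akr1b1 that reduces lipid aldehydes, rose by 0.49 ± 0.10 (adjusted p = 0.00102), from 8.27 ± 0.21 to 8.76 ± 0.31. Akr1c14, a 3-alpha-hydroxysteroid dehydrogenase, rose by 0.45 ± 0.14 (adjusted p = 0.0274). Its control rats ran from 6.58 to 7.74 and its treated rats from 6.92 to 8.26, with much overlap. Its adjusted p missed the threshold without treated rat 4 or control rat 9 (differences of 0.41 and 0.42), and its second probe set gave 0.58 ± 0.23 (adjusted p = 0.0874). Akr1c13 rose by 0.15 ± 0.05 (adjusted p = 0.0205), from a low level of 6.80.

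The remaining 6 reductases did not pass. Akr1a1, the general aldehyde reductase, was the brightest of the family's probe sets and lay at 11.40 in control and 11.41 in treated rats. Akr7a3 differed by 0.14 ± 0.06 (adjusted p = 0.0974) and Akr1c3 by 0.04 ± 0.11. Akr1d1, Akr1b7 and Akr1c1 were dim, at 6.08, 5.29 and 4.86 in controls, and differed by 0.04 or less in size. The Akr1c genes are paralogs, and their probe sets may read one another, which was not checked.

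Of 9 alpha and mu glutathione transferases, Gsta1 and Gstm1 rose and 7 did not pass. Gsta1, which conjugates lipid peroxidation products and reduces lipid hydroperoxides, ran from 9.97 to 10.64 in control rats (median 10.21) and from 10.42 to 11.06 in treated rats (median 10.85). Control rat 15, at 10.64, was the only control above 10.38, and all treated rats were at 10.42 or more. The difference was 0.57 ± 0.08 (adjusted p = 1.64e-05). Gstm1 ran from 8.20 to 8.69 in controls (median 8.37) and from 8.51 to 9.19 in treated rats (median 8.80), a difference of 0.44 ± 0.07 (adjusted p = 7.41e-05). Within the same families Gstm2 differed by -0.01 ± 0.06, Gsta4, a transferase of hydroxynonenal, by 0.12 ± 0.07, and Gsta3 by 0.01 ± 0.03 at a dim 5.09. Alpha and mu transferases are close paralogs, so that each probe set may hold signal of its neighbours.

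In the other transferase classes, Gsto1 and Gstk1 rose. Gsto1, the omega transferase that reduces dehydroascorbate, lay between 9.26 and 10.05 in controls (median 9.55) and between 9.86 and 10.24 in treated rats (median 10.06). Only control rat 15, at 10.05, reached the treated range. The difference was 0.48 ± 0.06 (adjusted p = 7.73e-06), and this gene was tighter among treated rats (SD 0.11) than among controls (SD 0.20), the reverse of Akr7a2. Gstk1, the mitochondrial and peroxisomal kappa transferase, rose by 0.28 ± 0.05 (adjusted p = 5.87e-04). Gstp1, the pi transferase and brightest of these probe sets, stood at 10.92 in control and 10.89 in treated rats. Gstz1, which isomerises maleylacetoacetate in tyrosine breakdown, differed by 0.29 ± 0.14 (adjusted p = 0.164). Gstt3 differed by -0.06 ± 0.07.

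Among aldehyde dehydrogenases, 3 of 12 rose. Aldh6a1, the methylmalonate semialdehyde dehydrogenase of valine breakdown, went from 8.99 ± 0.37 to 9.50 ± 0.37 (SD, n = 12 each), a difference of 0.52 ± 0.14 (adjusted p = 0.0113). Control rats ran from 8.53 to 9.70 and treated rats from 9.07 to 10.09, so the groups overlapped over much of their range although all 12 treated rats exceeded the control mean. Its second probe set gave 0.44 ± 0.10 (adjusted p = 0.00193). Aldh3a2, the fatty aldehyde dehydrogenase, rose by 0.22 ± 0.06 (adjusted p = 0.0129), and Aldh7a1, which acts in lysine breakdown, by 0.17 ± 0.04 (adjusted p = 0.0062).

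The folate enzyme Aldh1l1 lay near the threshold at 0.34 ± 0.12 (adjusted p = 0.0549), and its call depended on the analysis. It passed when treated rat 3 or 9, or control rat 5 or 14, was left out. It also passed with array weights (Aldh1l1 0.41), without dim probe sets, with stage or the technical score as a covariate and with rat 3 as the mean of its arrays. The mitochondrial acetaldehyde dehydrogenase Aldh2 was bright and level, at 11.11 ± 0.19 in control and 11.11 ± 0.22 in treated rats. Aldh9a1, an enzyme of carnitine and aminoaldehyde metabolism, differed by 0.18 ± 0.13 and the proline synthesis enzyme Aldh18a1 by -0.02 ± 0.14, both with wide spread between rats. Aldh4a1, of proline breakdown, differed by 0.10 ± 0.05.

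P450s and UDP-glucuronosyltransferases were mostly dim. Of all 88 genes, 35 lay below the 30th percentile of probe set means, among them 19 of the 29 P450s of families 1 to 3 and all 6 UDP-glucuronosyltransferases. None of the 15 genes that rose lay there. Cyp1a1, the classical target of the aryl hydrocarbon receptor, was the 1 P450 that rose, by 0.22 ± 0.06 (adjusted p = 0.00638). Its control rats ran from 6.74 to 7.14 (median 6.97) and its treated rats from 6.95 to 7.55 (median 7.18). Cyp1a2, regulated with it in liver, differed by 0.02 ± 0.06, Cyp2d4 by 0.07 ± 0.04, and each of the others by 0.09 or less in size.

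Family 4 P450s, the fatty acid hydroxylases, held no call among 10. Cyp4b1 was at 8.60 and 8.62, and Cyp4a3 at 8.25 and 8.31, in control and treated rats. Cyp4a1, a textbook target of PPAR-alpha in liver, differed by 0.10 ± 0.05 (adjusted p = 0.218). Cyp4v3 was the gene nearest to a fall, at -0.16 ± 0.06 (adjusted p = 0.0508). It passed without any 1 of 7 rats, treated 6, 7 and 10 and control 2, 8, 13 and 15. The epoxide hydrolases Ephx1 and Ephx2 differed by -0.12 ± 0.12 and 0.05 ± 0.06. The UDP-glucuronosyltransferases Ugt2a1, Ugt2b7 and Ugt2b had group means between 4.63 and 5.56 and differed by 0.06 or less.

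Nqo1, a 2-electron quinone reductase and a standard NRF2 target, rose by 0.15 ± 0.05 (adjusted p = 0.0356). Control rats ran from 7.65 to 8.03 (median 7.83) and treated rats from 7.74 to 8.17 (median 7.98), with 10 of 12 treated rats above the control mean. The call was marginal. It was lost without any 1 of 11 rats (treated 4, 7, 10, 11 and 12, control 6, 9, 10, 11, 12 and 15; adjusted p from 0.0508 to 0.0669).

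**Figure D2:**
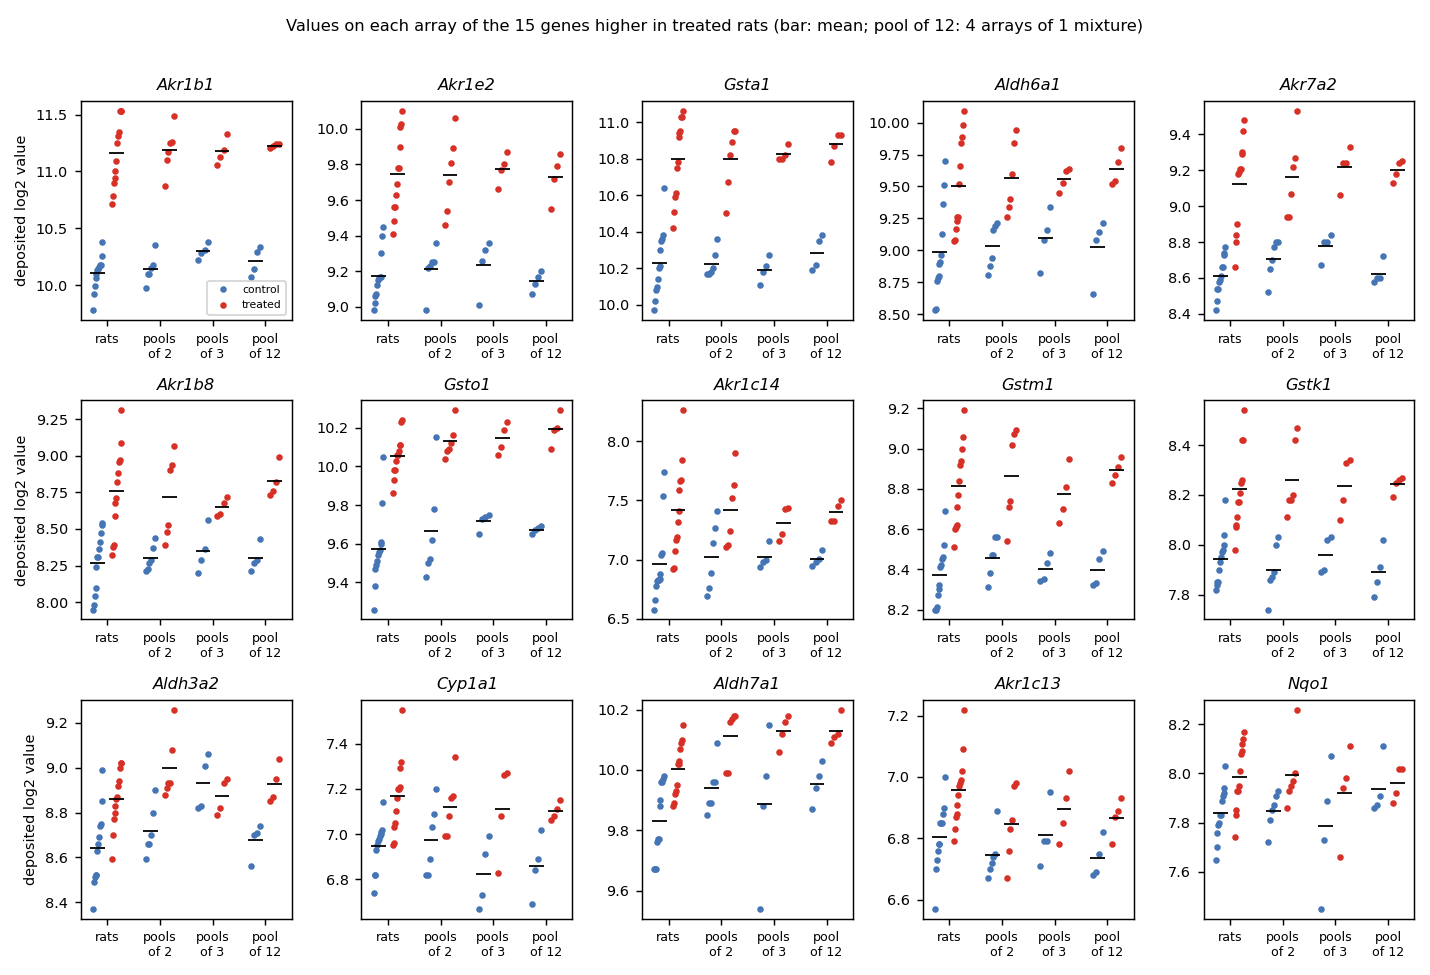
Deposited log2 values (vertical axis) on every array for the 15 genes higher in treated rats, with control in blue and treated in red for single rats, pools of 2, pools of 3 and the 4 arrays of the pool of 12; black bars are means. For Akr1b1 the lowest treated rat, 10.71, lies above the highest control, 10.38, whereas for Nqo1 and Aldh7a1 the groups overlap.

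No difference in response between stages was detectable after adjustment. Within diestrus (6 treated, 9 control rats) 8 genes were higher and none lower, against 4.30% of probe sets higher and 4.43% lower: Akr1b1, Akr1e2, Akr7a2, Gsta1, Gstm1, Gsto1, Gstk1 and Cyp1a1. Within proestrus or estrus (6 treated, 3 control rats) Akr1b1, Gsta1 and Akr1b8 were higher and none lower, against 1.20% and 0.284%. The difference of Akr1b1 was 1.06 ± 0.13 in diestrus and 0.97 ± 0.12 in proestrus or estrus, and that of Gsta1 0.53 ± 0.11 and 0.56 ± 0.10. The 3 calls in proestrus or estrus rested on few rats: without 1 rat in turn the count ran from 0 to 7. It was 0 without treated rat 12 or control rat 3, 1 without treated rat 2, 10 or 14 or control rat 8 or 10, and 7 without treated rat 3.

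The test of the treatment by stage interaction called 0 of the 88 genes and 0% of all probe sets. At an unadjusted p under 0.05 it gave 1 gene of 88 and 322 of 15866 probe sets. That gene was Akr1c3, a ketosteroid and prostaglandin reductase, with 0.23 ± 0.13 in diestrus and -0.24 ± 0.14 in proestrus or estrus (unadjusted p = 0.0401, adjusted p = 1.0). Next came Aldh4a1 with 0.04 ± 0.07 and 0.24 ± 0.07 (unadjusted p = 0.0779) and Gstt3 with -0.15 ± 0.11 and 0.13 ± 0.07 (unadjusted p = 0.0851). Stage itself, with treatment in the model, called 0 of 88 and 0% of all, with 1 gene and 581 probe sets at an unadjusted p under 0.05. That gene was Akr7a3, higher in proestrus or estrus by 0.14 ± 0.06 (unadjusted p = 0.0189, adjusted p = 0.999). Cyp2a3 (0.09 ± 0.04), Cyp4f17 (-0.13 ± 0.08) and Cyp4f1 (0.05 ± 0.03) followed, with unadjusted p from 0.0585 to 0.122.

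In the pools of 2, 10 genes were higher and none lower, against 5.15% and 3.67% of probe sets: Akr1b1, Akr1e2, Akr7a2, Akr1b8, Gsta1, Gstm1, Gsto1, Gstk1, Aldh6a1 and Aldh3a2. In the pools of 3, 8 were higher and none lower, against 3.26% and 2.97%, the same names without Akr1b8 and Aldh3a2. For Akr1b1 the 4 control pools of 3 read 10.22, 10.28, 10.31 and 10.38 and the 4 treated pools 11.06, 11.13, 11.19 and 11.33. The groups lay far apart, and the difference was 0.88 ± 0.07 (adjusted p = 1.01e-04). For Gsta1 the control pools of 3 read 10.11, 10.18, 10.21 and 10.27 and the treated pools 10.80, 10.80, 10.82 and 10.88, a difference of 0.63 ± 0.06 (adjusted p = 2.91e-04).

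Aldh3a2 showed no rise in the pools of 3, where the median difference of all probe sets was -0.035. Its control pools read 8.82, 8.83, 9.01 and 9.06 and its treated pools 8.79, 8.82, 8.93 and 8.95, with full overlap and a difference of -0.06 ± 0.08. The pools of 2 of the same rats gave 0.28 ± 0.07 (adjusted p = 0.025). Nqo1 differed by 0.15 ± 0.06 in pools of 2 and 0.14 ± 0.13 in pools of 3, past the threshold in neither, and by 0.02 in the pool of 12 (0.08 without the third control repeat, described next).

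The pool of 12 is 1 mixture per arm, so its values have no test. In it 7 genes were higher in the treated mixture by over 0.5 log2 and none lower, against 2.02% and 0.410% of probe sets. They were Akr1b1 (1.02), Aldh6a1 (0.61), Akr1e2 (0.59), Gsta1 (0.59), Akr7a2 (0.58), Akr1b8 (0.53) and Gsto1 (0.52). The third technical repeat of the control pool of 12 stood apart from its fellow arrays, with 12.45 on the main axis of repeat-array differences against -11.06, -8.44 and -9.645. Without it Aldh6a1 differed by 0.49. Leaving out any 1 of the 8 arrays gave between 6 and 8 genes. On the same axis the array of control rat 3 used in the single-rat fits read 12.46, against -4.527 and -11.82 on its repeat arrays. The axis was made from these same arrays and those of the pools of 12, so their positions on it are no independent check. Control rat 3 was among the control rats in proestrus or estrus, where no gene passed without it.

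**Figure D3:**
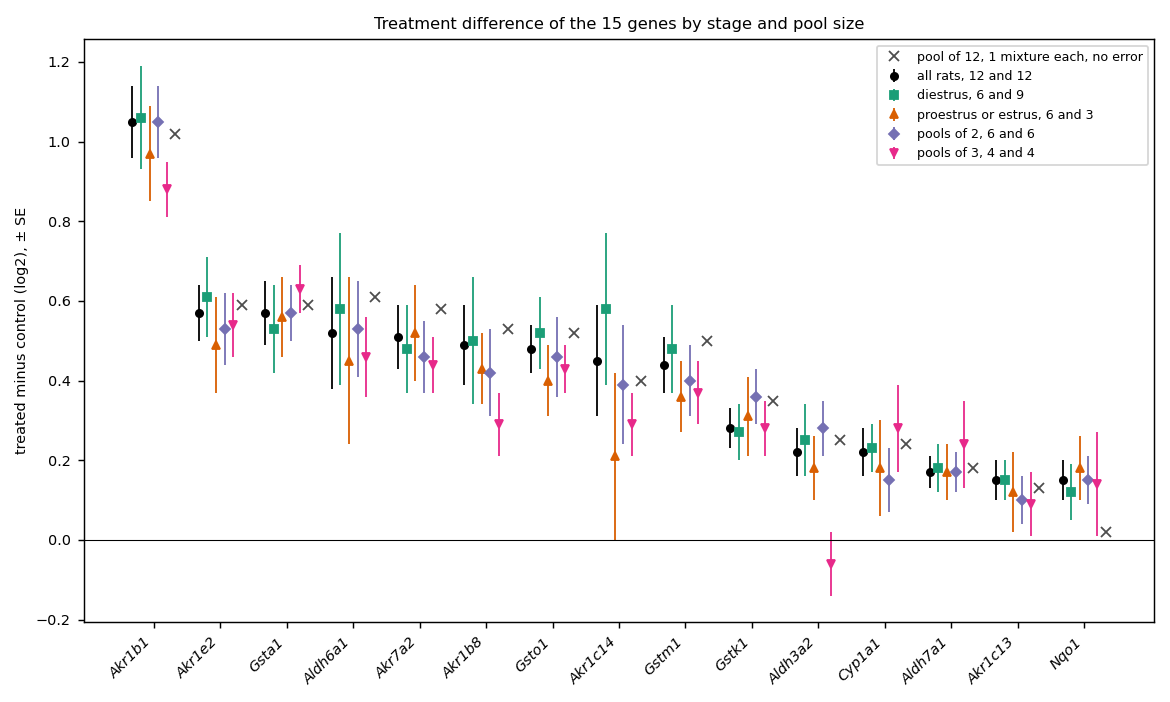
Treated minus control difference (log2, vertical axis, ± standard error) of the 15 genes in all rats, in each stage group, in pools of 2 and 3, and in the pool of 12 (cross, no error). Akr1b1 lies between 0.88 and 1.06 in all 6, and Aldh3a2 is below 0 in the pools of 3 alone.

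Rats of the same group differed in several of these genes by far more than repeat arrays did. The median SD over the 88 genes was 0.121 between rats of a group and 0.0997 between repeat arrays, against 0.117 and 0.0962 over all probe sets. A ratio above 3 was reached by 10 of the 88 genes and by 7.89% of all probe sets: Ephx1, Akr1c14, Gstz1, Aldh18a1, Aldh2, Aldh1l1, Cyp4b1, Cyp2j3, Aldh9a1 and Akr1a1. Ephx1, the microsomal epoxide hydrolase, had the highest ratio, 6.31, with an SD of 0.309 between rats and 0.0489 between repeats.

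**Figure D4:**
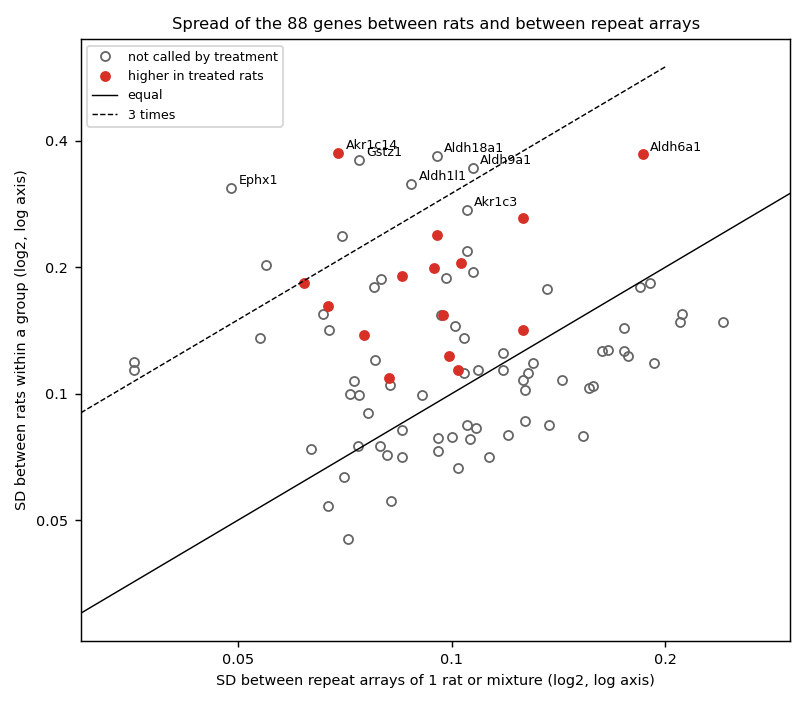
SD between rats within a group (vertical, log axis) against SD between repeat arrays of 1 rat or mixture (horizontal, log axis) for the 88 genes; lines mark equality and a ratio of 3. Ephx1, Gstz1 and Akr1c14 lie farthest above the dashed line, while Aldh6a1 has a wide spread between repeats as well (0.186).

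In control rats Aldh9a1 fell into separate sets: 8 rats lay between 10.05 and 10.32, and rats 5, 10, 14 and 15 between 10.80 and 10.96. The same 4 rats held the 4 highest control values of Gstz1 (9.84 to 10.11, against 9.01 to 9.64 in the others) and of the fat cell marker mean (10.28 to 10.69, against 9.82 to 10.16). They were not of 1 stage: rat 10 was in estrus and the other 3 in diestrus. In treated rats, where no such gap was seen, Aldh9a1 ran from 10.13 to 11.06.

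Correlations were computed among the 8 most variable genes in each group (56 relations, n = 12 rats, permutation p adjusted over all). In treated rats Gstz1 and Aldh6a1 rose and fell together (r = 0.92, rho = 0.85, adjusted permutation p = 7.47e-04, r = 0.89 without the 2 most distant rats). Gstz1 and Aldh18a1 ran opposite ways (r = -0.91, rho = -0.93, adjusted permutation p = 7.47e-04, r = -0.85 without 2). In control rats the latter pair gave r = -0.66 and rho = -0.64 (adjusted permutation p = 0.0339). There it was weaker without the 2 most distant rats (r = -0.43) and among the 8 control rats in the lower Aldh9a1 set (r = -0.16). Of 28 pairs, 18 positive and 6 negative ones passed in treated rats, and 10 and 4 in controls. Every negative pair that passed held Aldh18a1. The control counts include pairs with Aldh9a1, whose separate sets make a pooled correlation hard to read. Whether the groups differed in these relations was not tested.

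Markers of several cell types moved with treatment. Of 14 fat cell markers 9 were higher and 1 lower in treated rats. The mean of the list was 10.18 ± 0.25 in control (9.82 to 10.69) and 10.64 ± 0.28 in treated rats (10.12 to 11.05), and its summed level ran from 14.81 to 15.60 and from 15.01 to 15.83. The markers did not move alike: the glycerol phosphate dehydrogenase Gpd1 differed by 1.17, the lipid droplet coat Plin1 by 0.24 (not called), the fatty acid transporter Cd36 by 0.07 (not called) and the fat cell protease Cfd by -0.69. Of 19 luminal markers 11 were lower and none higher, with means of 9.01 ± 0.08 and 8.80 ± 0.08. All 14 fat cell markers lay at or above the 41.2 percentile of probe set means, while the luminal hormone receptor Esr1 (5.83 in controls) and the luminal factor Foxa1 (5.93) were dim. Of 10 basal epithelial markers 4 were lower and 1 higher, of 9 milk genes 5 were lower, of 13 fibroblast markers 2 were higher, and of 8 macrophage markers 2 were higher and 1 lower. Of 12 hepatocyte genes 1 was lower and none higher. Over all probe sets 18.1% were called in either direction in the same fit. The fibroblast (15.4%) and hepatocyte (8.33%) lists lay below that share, so their counts show no excess over the array. The fat cell (71.4%), luminal (57.9%), milk (55.6%) and macrophage (37.5%) lists lay above it, as did the basal list. These differences in share were not tested. The fat cell list alone was used as a covariate, and the fat cell and luminal lists alone were correlated with the genes described here. The part of the other lists in the results was not tested.

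Members followed the fat cell marker mean to very different degrees (528 relations to this list, the luminal list and the technical score, n = 12 rats in each group, permutation p adjusted over all). In treated rats Akr7a2 followed it closely (r = 0.97, rho = 0.87, adjusted permutation p = 0.00264, r = 0.93 without the 2 most distant rats). In control rats the same gene gave r = 0.34 and rho = 0.50 (adjusted permutation p = 0.499). Akr1b1 gave r = 0.86 and rho = 0.85 in treated rats (adjusted permutation p = 0.0102, r = 0.81 without 2). In controls it gave r = 0.02 and rho = 0.15 (adjusted permutation p = 0.98). Akr1b8 followed the markers in treated rats (r = 0.91, rho = 0.94, adjusted permutation p = 0.00264), and gave r = 0.41 in controls. These differences between the groups were not tested. Treated rats 3, 5, 8 and 9 had the lowest marker means (10.12 to 10.44, next 10.66). The same rats held the lowest treated values of Akr7a2, Akr1b1 and Akr1b8. Correlations without these rats were not computed, so how far the treated relations lean on them was not tested.

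Gstz1 correlated with the fat cell markers over all 12 rats of each group, with r = 0.84 and rho = 0.81 in controls (adjusted permutation p = 0.0102, r = 0.77 without 2) and r = 0.85 and rho = 0.81 in treated rats (adjusted permutation p = 0.00834, r = 0.75 without 2). Aldh2 did so as well, with r = 0.89 and rho = 0.84 in controls (adjusted permutation p = 0.00264, r = 0.78 without 2) and r = 0.84 and rho = 0.71 in treated rats (adjusted permutation p = 0.0169, r = 0.71 without 2). Its group means were both 11.11. Aldh5a1, the succinic semialdehyde dehydrogenase, ran against the markers in controls (r = -0.84, rho = -0.81, adjusted permutation p = 0.0102, r = -0.68 without 2). In treated rats it gave r = -0.72 (adjusted permutation p = 0.0692). The control relations leaned on rats 5, 10, 14 and 15: among the other 8 control rats r was 0.36 for Gstz1, 0.56 for Aldh2 and -0.58 for Aldh5a1. In all, 6 genes correlated positively and 2 negatively with the fat cell list in controls, and 15 and 2 in treated rats. With the luminal list, 0 genes correlated in controls and 1 positively in treated rats. The means of the 2 lists gave r = -0.61 with each other in treated rats (permutation p = 0.034) and r = -0.20 in controls. With the technical score, the position on the main axis of repeat-array differences, 17 correlated positively in controls, and 11 positively and 1 negatively in treated rats. These counts cover the genes described here alone. Whether a similar share of all probe sets follows either list or the score was not tested. The fat cell marker mean itself gave r = -0.59 and rho = -0.62 with that score in treated rats (permutation p = 0.0457, r = -0.32 without 2) and r = -0.08 in controls.

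**Figure D5:**
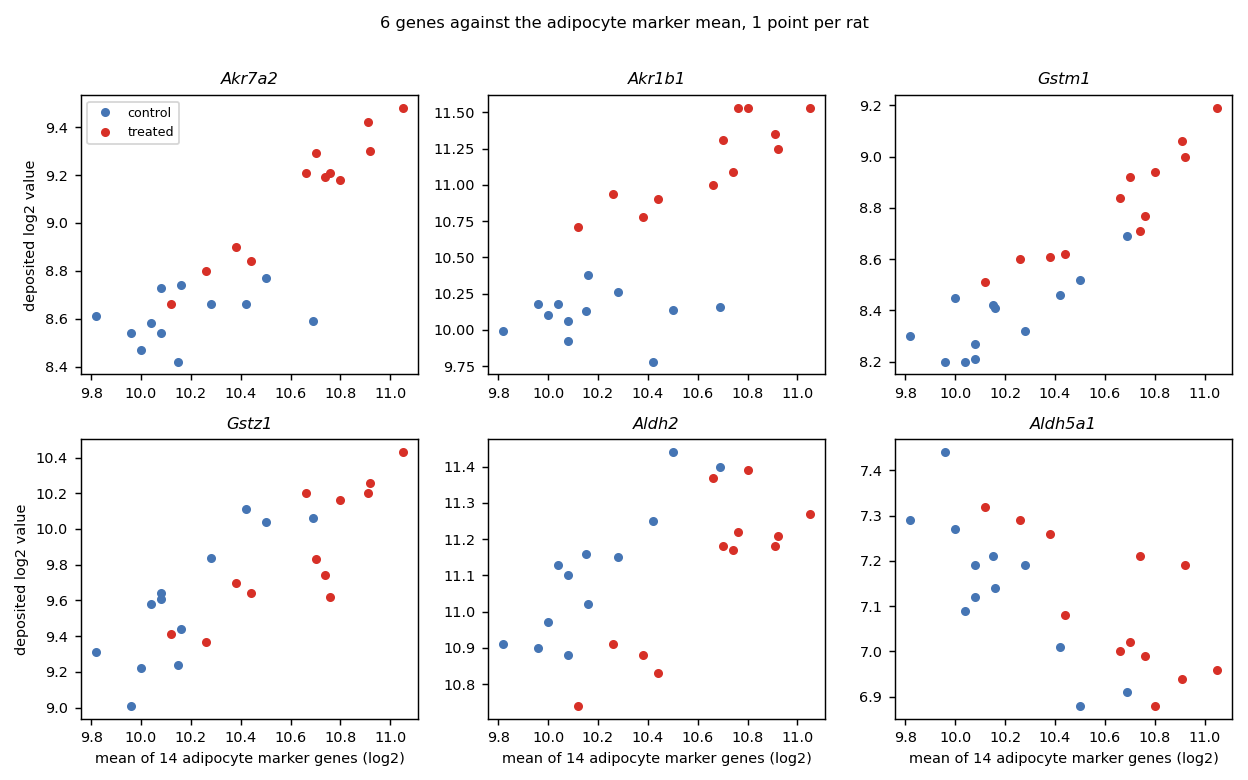
Deposited log2 value of 6 genes (vertical axes) against the mean of 14 fat cell markers (log2, horizontal axes), 1 point per rat, control in blue and treated in red; the 6 were picked with their values known. Akr1b1 of treated rats lies above that of controls at every marker level they share, while Aldh2 climbs with the markers in both groups around equal means of 11.11.

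With the marker mean of each rat as a covariate, Akr1b1 was higher by 0.82 ± 0.10 (adjusted p = 3.85e-05), Gsto1 by 0.42 ± 0.08 (adjusted p = 0.00198), Akr1e2 by 0.37 ± 0.08 (adjusted p = 0.00323) and Gsta1 by 0.28 ± 0.07 (adjusted p = 0.00526). Akr7a2 (0.25), Cyp1a1 (0.23), Aldh7a1 (0.23) and Gstm1 (0.17) also stayed above the threshold. The 7 calls lost were Akr1b8 (0.16), Akr1c13 (0.12), Gstk1 (0.10), Aldh6a1 (0.04), Nqo1 (0.04), Aldh3a2 (0.03) and Akr1c14 (-0.05). Further genes then passed: Aldh18a1 (0.47) and Akr1a1 (0.15) as higher, and Ephx1 (-0.49), Gstt2 (-0.39), Aldh9a1 (-0.37), Aldh2 (-0.30) and Cyp4v3 (-0.24) as lower. The marker list itself differed between the arms, so this fit compares rats at equal marker mean and its values are not those of the tissue.

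Of the remaining genes of the pathway, those called included more rises than falls. The lists were 19 genes of NRF2 action and glutathione supply, 17 peroxidases and microsomal transferases and 14 P450 partners and receptors. Further lists held 36 other conjugating, oxidising or reducing enzymes and 8 genes listed as efflux transporters. Together 27 of 94 were higher and 5 lower, and with the fat cell marker mean as a covariate 10 were higher and 10 lower. Over all 15866 probe sets 8.46% were higher and 9.59% lower without the covariate, as above. With it, 1021 probe sets were higher and 1484 lower.

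For glutathione supply, 5 of 19 rose and none fell, with a median difference of 0.01. Gss, which makes glutathione, went from 8.55 ± 0.11 to 8.90 ± 0.16 (0.35 ± 0.05, adjusted p = 4.86e-05). Hmox1, an NRF2 target that breaks down haem, and Blvra, biliverdin reductase, rose by 0.21 ± 0.05 and 0.20 ± 0.05. The thioredoxin reductase Txnrd1 and sulfiredoxin Srxn1 each rose by 0.15 ± 0.05. The transcript of NRF2 itself, Nfe2l2, differed by -0.06 ± 0.07.

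Among peroxidases and microsomal transferases 6 rose and 3 fell. Prdx6, a peroxiredoxin that uses glutathione, rose by 0.39 ± 0.08 and Gpx4, which reduces lipid hydroperoxides, by 0.25 ± 0.05. Catalase (Cat), which breaks down hydrogen peroxide, rose by 0.45 ± 0.10. The secreted peroxidase Gpx3 fell by 0.57 on the log2 scale, Ltc4s, which makes leukotriene C4, by 0.29, and Gpx1 by 0.14.

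Of the P450 partners and receptors 5 of 14 rose and none fell. Alas1, the rate-limiting enzyme of haem synthesis, went from 7.87 ± 0.21 to 8.75 ± 0.40 (0.88 ± 0.12, adjusted p = 1.68e-05). Cyb5r3, cytochrome b5 reductase, rose by 0.72 ± 0.10 (adjusted p = 9.6e-06), Pgrmc2, a haem chaperone, by 0.57 ± 0.12, and the cytochromes b5 Cyb5b and Cyb5a by 0.34 and 0.32. Of the P450s among the 88 genes, Cyp1a1 alone passed in the same fit.

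Of the other conjugating, oxidising and reducing enzymes 10 of 36 rose and 2 fell. The amine oxidases Maob and Maoa rose by 0.80 ± 0.12 and 0.49 ± 0.09, and the quinone reductase Nqo2 by 0.43 ± 0.07 (adjusted p = 5.46e-05), from 6.38 ± 0.15 to 6.81 ± 0.20. Papss1, which makes the sulfate donor, fell by 0.37, and Xdh, xanthine dehydrogenase, by 0.44. Of 8 genes listed as efflux transporters Abcc3 rose, by 0.18 ± 0.06 (adjusted p = 0.0232), while Abcc9 (0.18 ± 0.14) and Abcc1 (-0.05 ± 0.06) did not pass. Abcc9 is in that list but is not a pump.

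Promoters were read because regulators of these families have known binding letters. RefSeq (GRCr8) gave promoters, 250 bases before to 50 after the start, for 71 of the 88 genes (73 promoters), 13 of the 15 that rose among them. Akr1b1, the most changed gene, and Cyp1a1 had no promoter entry and were not searched. Sites outside this window were not read for any gene. Both strands were searched for the antioxidant response element core TGACNNNGC, the xenobiotic response element core TNGCGTG and the DR1 element of retinoid X receptor pairs. The first was in 12 of the 73 (16.4%) against 12.1% of all 33469 promoters, the second in 3 (4.11%) against 4.89%, and DR1 in none against 0.131%. Of the 13 promoters of genes that rose, 1 held the antioxidant core (Gsta1) and 2 the xenobiotic core (Akr7a2 and Aldh3a2). Of the 60 others, 11 and 1 did. Shown here are the matches in the most changed genes that hold one: the 30 bases around the Gsta1 match, which begins 31 bases after the start (chr9:31216483-31216512, minus strand), and the 250 bases before the start of Akr7a2, whose match begins 29 bases before it (chr5:156835339-156835588, plus strand). Capitals mark the matched letters.
Gsta1: aactcaggcaTGACTTTGCatttttcttct
Akr7a2: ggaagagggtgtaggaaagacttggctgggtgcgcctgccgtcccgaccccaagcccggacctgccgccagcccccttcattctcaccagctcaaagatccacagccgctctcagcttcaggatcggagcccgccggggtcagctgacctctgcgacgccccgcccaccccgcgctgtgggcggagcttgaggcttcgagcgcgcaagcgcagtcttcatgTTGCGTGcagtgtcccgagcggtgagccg
A match is a description of the letters and was not tested for binding.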

How the data were processed

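The authors made biotin-labelled cRNA from 5 µg of total RNA per gland and hybridised 10 µg of fragmented target, per the labels, and pools were mixed from targets after labelling. The deposited table holds log2 values, 1 per probe set and array; the unit was inferred from the range, 4.12 to 14.08, which exceeds the natural log of a 16-bit maximum (11.09) and not its log2 (16.0). The labels name no software, background correction or normalization (not given in the sources used here).

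The 57 control probe sets were left out, which left 15866. Symbols came from the platform annotation and were updated by Entrez gene ID to GRCr8. Probe sets with several symbols were left out, 6 with a member's name among them. A gene with several probe sets was read from the brightest; 6 of the 88 genes had more than 1.

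Differences were fitted with limma 3.58.1 in R 4.3.3 (lmFit and eBayes) over all probe sets for each comparison, with Benjamini-Hochberg adjustment and an adjusted p under 0.05 as the threshold. The fits were tested on simulated data. Correlations used 100000 permutations. The main axis of repeat-array differences held 57.3% of their variance. Named genes were the 10 called genes with the largest rise or fall, in each family the 2 brightest and the most different, Nqo1, the 4 most variable in controls, those with the smallest p for stage (4) and interaction (3), and, in each other pathway list, the 3 with the smallest p. Other named genes were picked with their values known. The members and lists were chosen with earlier results of these data known. RNA was extracted from each gland separately, per the labels. The p-values of the single-rat fits measure the spread between rats and the error of their arrays together. Those of the pool fits measure the spread between mixtures of the same rats' targets. Alternatives were other normalizations, filters, priors, weights, thresholds and covariates, and leaving out each array. The correlation of same-numbered rats is given with the alternatives.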

Additional observations from a re-analysis of the deposited data

Results flagged for a closer look

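Of 111 small groups checked for a lone value (the genes that rose, in each pool group, and the genes with the smallest stage or interaction p, in each stage group), 6 held one, and chance alone flags about 1 in 20 groups. Akr1e2 in the control pools of 2 had a lowest value of 8.98 against the next at 9.22, and Akr1c13 a highest of 6.89 against 6.75, both in pool 3. Nqo1 in the treated pools of 2 reached 8.26 in pool 4, against 8.0 for the next. Akr7a2 in the control pool of 12 read 8.72 on the array labelled second technical repeat, against 8.60 for the next. Among treated diestrus rats, Cyp4f17 was highest in rat 8 (6.45, next 6.17) and Gstt3 lowest in rat 9 (7.02, next 7.63). No gene's treatment effect differed between stages past an adjusted p under 0.05.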

How the results depend on the processing

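The count of 15 genes in single rats stayed within 1.5 times under the other normalizations, filters, priors, weights, thresholds and design covariates, from 10 at an adjusted p under 0.01 to 17 with array weights or without dim probe sets, and from 13 to 16 when each rat was left out. Of the 15, 10 passed in all of these and without each rat. With the fat cell marker mean as a covariate, chosen after the data were seen, 15 passed, 10 higher and 5 lower. In that fit 1021 of all 15866 probe sets were higher and 1484 lower. Other counts moved further. At an adjusted p under 0.01 the other pathway genes fell from 32 to 19, diestrus from 8 to 5, proestrus or estrus from 3 to 0, pools of 2 from 10 to 5 and pools of 3 from 8 to 5. The pathway count was 20 with the marker covariate, diestrus 14 with array weights, and proestrus or estrus 5 after quantile normalization and 5 without dim probe sets. Leaving out single arrays gave 7 to 11 genes in diestrus, 0 to 7 in proestrus or estrus, 6 to 8 in the pool of 12, and a repeat SD of 0.0921 to 0.102.

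Rats of both arms that share a number did not consistently deviate together (10 numbers, correlations from -0.389 to 0.358, 5 above 0.1). These correlations cannot exclude that the numbers stand for a shared factor, and the main fits used no pairing. With the rat number as a replicate block 15 genes passed, 13 higher and 2 lower. Under it Nqo1 gave 0.12, Akr1c14 0.36 and Akr1c13 0.12, none past the threshold.

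Signs turned for small differences. Quantile normalization gave Akr1a1 -0.07 and Aldh2 -0.07, median centring Ugt2b7 0.00, and array weights Akr1a1 -0.02 and Gstm2 0.01. The replicate block gave Akr1c3 -0.01, Aldh18a1 0.15, Aldh2 -0.04, Cyp1a2 -0.02, Cyp4b1 -0.04, Ephx2 -0.02 and Ugt2b7 0.03. Stage as a covariate gave Aldh2 -0.03 and Gstm2 0.00, and the technical score Cyp1a2 0.00 and Gstm2 0.01. The marker covariate gave Akr1c14 -0.05, Akr1c3 -0.18, Aldh18a1 0.47, Aldh1l1 -0.10, Aldh2 -0.30, Aldh9a1 -0.37, Cyp2d4 -0.03, Cyp4b1 -0.22, Cyp4f1 0.02, Ephx2 -0.08, Gstz1 -0.24 and Ugt2b7 0.09. Without single rats the ranges were -0.01 to 0.03 for Akr1a1, -0.01 to 0.08 for Akr1c3, -0.07 to 0.04 for Aldh18a1, -0.02 to 0.04 for Aldh2, -0.01 to 0.05 for Cyp1a2, -0.01 to 0.09 for Cyp4b1, -0.03 to 0.00 for Cyp4f1, -0.04 to 0.02 for Gstm2, -0.06 to 0.01 for Gstp1 and -0.02 to 0.01 for Ugt2b7. The cause was not tested. The dim signal of 35 of the 88 genes limits what these arrays can show for them.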
